A study of Mus musculus with 2 samples.

Results

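The vitamin K dependent Gla proteins and the enzymes that make them were followed through the cells of the mouse fracture callus. The group held 8 genes of 32285 in the tables, chosen by name: the osteocalcin copies Bglap, Bglap2 and Bglap3, Mgp, Ucma, Gas6, and the enzymes Ggcx and Vkorc1, which carry no Gla domain themselves. All 8 had a row in both libraries, and Bglap3 was nearly silent, with 24 (MGJ) and 11 (MGJ2) unique molecular identifiers (UMIs, each 1 captured transcript) in the whole of each library.

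Single-cell RNA sequencing (10x Genomics 3′ chemistry, version 3) had been run on callus from wild-type mice with a femoral fracture. The mice were adult C57BL/6J males with a pin-stabilised transverse break of the mid-femur, and callus was collected at 10 and at 20 days, from 5 mice each. The labels assign neither library to a day and do not say how the mice were combined, so each library was described alone and they were never set against each other as times. With no replicate library there is no test: every interval below is an exact 95% interval that covers counting error only, not the spread between cells or between animals.

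Vitamin K dependent carboxylation converts selected glutamate residues to gamma-carboxyglutamate (Gla), which binds calcium. The gamma-carboxylase Ggcx performs the step in the endoplasmic reticulum and uses up reduced vitamin K, which the epoxide reductase Vkorc1 regenerates and warfarin blocks. In the skeleton, osteocalcin is the bone Gla protein secreted by mature osteoblasts, matrix Gla protein (Mgp) restrains mineralisation of cartilage and vessel wall, and Ucma is a Gla-rich protein of cartilage.

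After barcodes with fewer than 200 genes, more than 20% mitochondrial UMIs or a doublet call had been removed, library MGJ kept 13320 of 14295 barcodes, and library MGJ2 kept 7584 of 8009. Total depth was 135304426 and 61130834 UMIs. Only 19 barcode sequences occurred in both libraries (0.133% and 0.237%). Doublet calls fell short of the expected rate (1.04% against 10.8% in library MGJ, 2.84% against 6.24% in library MGJ2), and mixed droplets may remain. Clusters were built without the 8 members and named from marker lists. Library MGJ had 2751 chondrocyte-like, 67 osteoblast-like and 1098 fibroblast-like cells, and library MGJ2 had 132, 13 and 8. The chondrocyte-like cells were staged by Col10a1, the collagen of hypertrophic chondrocytes, in UMIs per 1000000 UMIs of the cell (CPM, the unit of every level below): low under 1000 (1905 and 56 cells), moderate from 1000 (348 and 28) and high from 10000 (498 and 48). Within 1.2-fold of the lower and upper limits lay 54 and 59 cells of library MGJ, and 5 and 5 of library MGJ2. In library MGJ2 the stromal classes were small, and its values rest on few cells. The osteoblast-like cluster was led by Ifitm5 and Dmp1 and its Col1a1, the main bone collagen, stood at 44045 CPM (MGJ) and 61981 CPM (MGJ2), against 1804 and 2177 CPM in high Col10a1 cells.

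The osteocalcin copies lie side by side, and their sequences are shown because they decide how well the counts can be told apart. In GRCm38 with GENCODE M21, Bglap (ENSMUSG00000074483) is at chr3:88383501-88384464 and Bglap2 (ENSMUSG00000074486) at chr3:88377736-88378699, both on the minus strand and 4801 bases apart. Bglap3 (ENSMUSG00000074489) follows at chr3:88368616-88372743. The other members are single genes, Mgp at chr6:136872435-136875823, Ucma at chr2:4976122-4985748, Gas6 at chr8:13465374-13494490, Ggcx at chr6:72414308-72430712 and Vkorc1 at chr7:127893063-127895617. The coding exons, printed from the start codon and without the stop codon, with the bases that differ between the copies in capitals, read:
Bglap: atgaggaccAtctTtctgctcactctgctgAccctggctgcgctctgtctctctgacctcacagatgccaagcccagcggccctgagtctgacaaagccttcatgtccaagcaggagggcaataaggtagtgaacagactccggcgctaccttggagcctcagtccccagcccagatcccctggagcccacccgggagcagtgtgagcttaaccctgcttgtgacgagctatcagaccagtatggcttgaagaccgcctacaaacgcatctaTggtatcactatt
Bglap2: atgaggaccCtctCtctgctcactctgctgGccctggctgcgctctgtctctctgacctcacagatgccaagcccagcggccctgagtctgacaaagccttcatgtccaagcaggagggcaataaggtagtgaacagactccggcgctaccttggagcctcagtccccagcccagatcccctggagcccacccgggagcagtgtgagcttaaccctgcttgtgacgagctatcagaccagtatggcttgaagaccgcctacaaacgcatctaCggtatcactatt
Over 285 bases the pair differed at 4 positions, A10C, T14C, A31G and T273C (the Bglap base first, positions counted from the A of the start codon), an identity of 98.6%. Bglap3 was 95.4% identical to Bglap and 96.8% to Bglap2. In the last 400 bases of the annotated transcripts, 67.7% of 91-base windows of Bglap, and the same share of Bglap2, also occurred in another copy. Reads from such windows cannot be assigned to 1 gene, so the counts of Bglap and Bglap2 may understate them. For Bglap3, 0% of 91-base windows and 25.6% of 50-base windows were shared. A ratio between the copies is read below only as it differs between cell classes counted in the same way.

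Osteocalcin transcripts marked the osteoblast-like cells and were spread very unevenly among them. In library MGJ, Bglap stood at 2482 CPM in osteoblast-like cells, 54.6 in high, 21.8 in moderate and 7.65 in low Col10a1 cells, and 0.705 in fibroblast-like cells. Bglap2 stood at 1202 in osteoblast-like cells and at 4.13, 9.27 and 3.14 in the high, moderate and low stages. The 67 osteoblast-like cells, 0.503% of the cells of library MGJ, thus held 65.8% of its Bglap and 79.2% of its Bglap2 UMIs. In library MGJ2, Bglap was 272 CPM in the 13 osteoblast-like cells, 152 in high, 358 in moderate and 81.3 in low Col10a1 cells. Bglap2 there was 137, 8.55, 114 and 59.1 in the same order, and chondrocyte-like cells held 72.9% of the Bglap UMIs of that library. Of the moderate cells 1 held 222 of the 264 Bglap and 78 of the 84 Bglap2 UMIs, and the levels without it were 59.9 and 8.56. A further 30 Bglap UMIs there, 142 CPM, were in 19 marrow reticular-like cells.

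**Figure D1:**
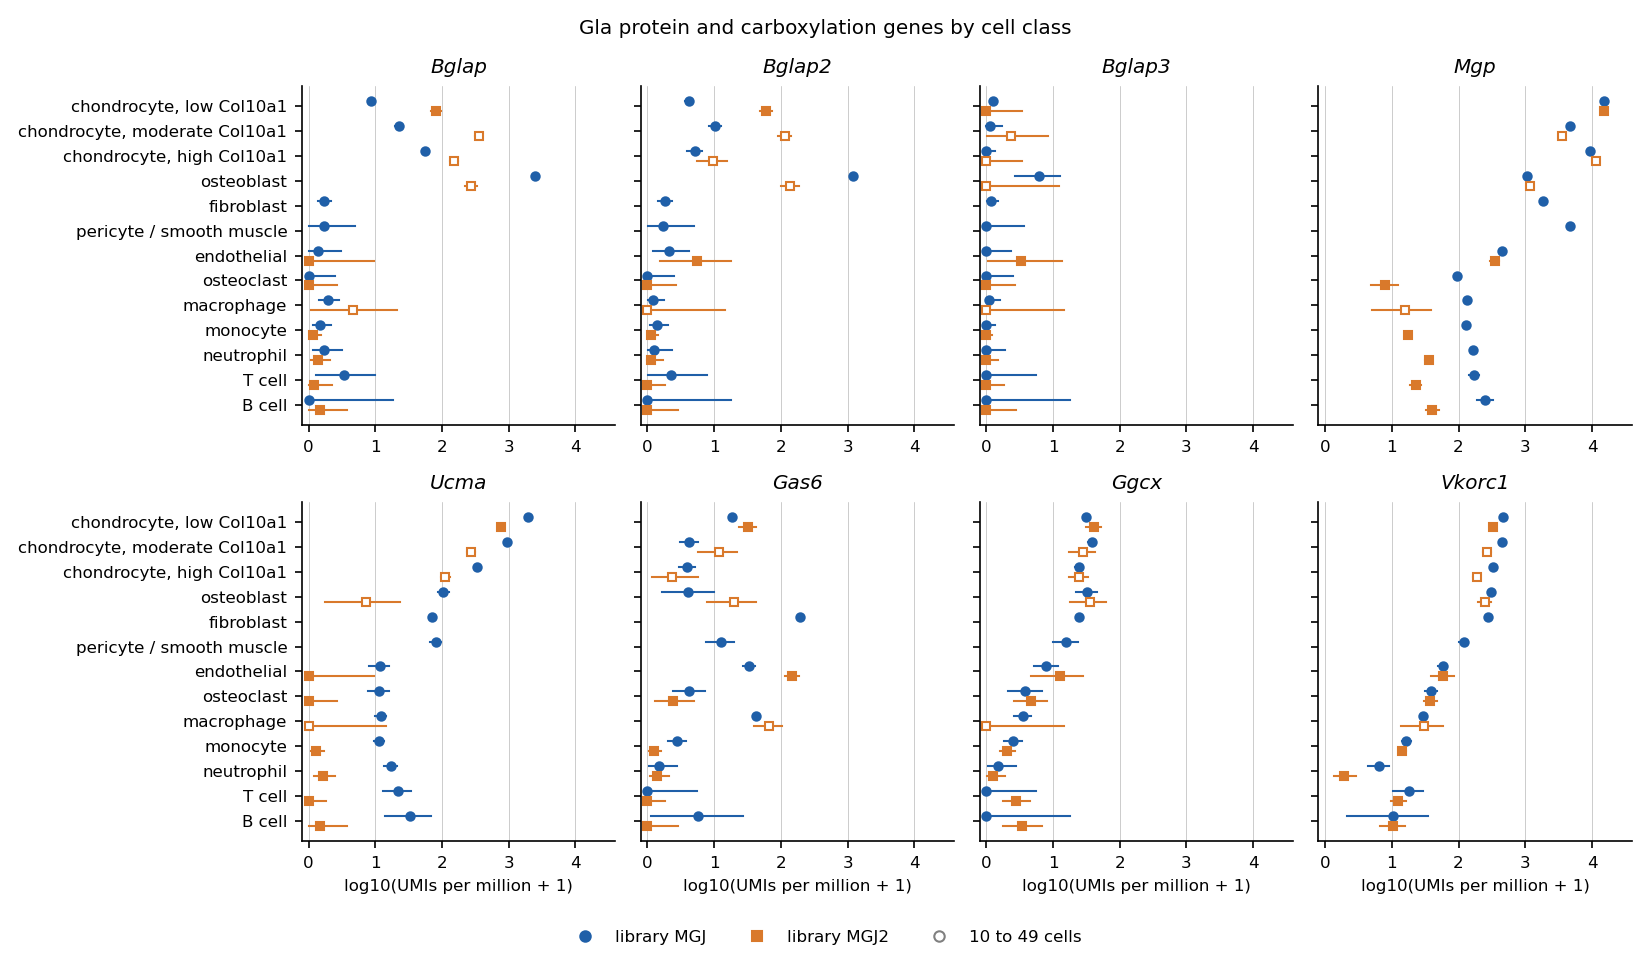
Level of each of the 8 genes by cell class, as log10 of (CPM + 1), with blue circles for library MGJ, orange squares for library MGJ2, open symbols for classes of 10 to 49 cells, and bars for exact 95% Poisson intervals. Bglap and Bglap2 peak in osteoblast-like cells in library MGJ, Mgp and Ucma in the chondrocyte stages, and Gas6 in fibroblast-like cells in library MGJ and endothelial-like cells in library MGJ2 among the classes drawn.

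Set against all other cells, osteoblast-like cells of library MGJ carried 257-fold more Bglap (interval 240 to 275) and 510-fold more Bglap2 (449 to 580). A gene was called when its ratio reached 2-fold in either direction and the interval excluded 1, among genes with at least 50 UMIs in the sets compared. Bglap and Bglap2 were the 2 of 7 measured members called higher, against 4.65% of all genes tested, while Mgp, Ucma and Gas6 were called lower, against 12.9% of all genes. In library MGJ2, 4 of 7 were called higher (Bglap 20.7-fold, Bglap2 35.6-fold, Ggcx 9.19-fold and Vkorc1 7.38-fold, against 12.0% of all genes) and Ucma lower (against 16.8%). The other cells of library MGJ2 were mostly leukocytes, so ratios to all other cells do not have the same base in both libraries.

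Few cells made the osteocalcin signal. Of the 67 osteoblast-like cells of library MGJ, 26 had a Bglap UMI, 21 a Bglap2 UMI, 20 both, and 40 neither. A single cell held 1194 Bglap UMIs of the 2428, and the 7 cells with the most held 97.6%. Without the cell highest for each gene, the levels in that library were 1293 CPM for Bglap and 634 for Bglap2, and the ratios to all other cells were 140 and 285. In library MGJ2 a cell with 52 of the 87 Bglap UMIs set the level, which was 119 without it. After each cell was thinned to 2000 UMIs, 21.3% of osteoblast-like cells of library MGJ (11.9 to 33.7%; 38.8% before thinning, median depth 14656 UMIs) and 8.73% of high Col10a1 cells (6.37 to 11.6%; 28.1%, median 20677) had a Bglap UMI. None of the 769 thinned neutrophil-like cells had one, an exact upper limit of 0.479% (0.278% before thinning, median 3262), so both shares stood above that reference. In library MGJ2 the thinned shares were 25% of 12 osteoblast-like cells (5.49 to 57.2%; 53.8%, median 26755) and 22.9% of 48 high Col10a1 cells (12.0 to 37.3%; 56.25%, median 28974.5), whose intervals overlapped, against 0.120% of neutrophil-like cells (0.135%, median 2491.5). With 1000 UMIs per cell the same 2 shares were 12.5% and 5.10% (MGJ) and 15.4% and 8.33% (MGJ2).

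High Col10a1 chondrocyte-like cells carried Bglap with little Bglap2, in both libraries. In library MGJ, osteoblast-like cells held 2428 Bglap and 1176 Bglap2 UMIs, low Col10a1 cells 300 and 123, moderate cells 174 and 74, and high Col10a1 cells 555 and 42. Bglap2 thus made up 32.6% of the pair in osteoblast-like cells (31.1 to 34.2%), 29.1% in low (24.8 to 33.7%), 29.8% in moderate (24.2 to 36.0%) and 7.04% in high Col10a1 cells (5.12 to 9.39%). In library MGJ2 the counts were 87 and 44, 121 and 88, 264 and 84, and 231 and 13 in the same order. The Bglap2 shares there were 33.6% (25.6 to 42.4%), 42.1% (35.3 to 49.1%), 24.1% (19.7 to 29.0%) and 5.33% (2.87 to 8.94%). The interval of the high stage lay below those of the other sets in each library.

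Finer steps of Col10a1 gave the same picture in library MGJ. The 5 bins below 10000 Col10a1 CPM held 93, 87, 120, 80 and 94 Bglap UMIs against 42, 43, 38, 38 and 36 of Bglap2. From 10000 up to 30000 the counts were 310 and 36, and from 30000 they were 245 and 6. In single cells with at least 10 UMIs of the pair, the median Bglap2 share was 46.5% over 10 osteoblast-like cells of library MGJ (lowest 17.6%, highest 61.5%) and 0% over 11 high Col10a1 cells (highest 28.6%), of which 8 had no Bglap2 UMI. The 3 such osteoblast-like cells of library MGJ2 ranged from 22.4 to 56.8% and the 5 high Col10a1 cells from 0 to 7.69%. These ranges overlapped in library MGJ and not in library MGJ2. The MGJ2 bin from 3000 up to 10000 CPM, of 19 moderate cells, already held 40 Bglap UMIs against 1 of Bglap2.

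The pair was looked at again without the cell that held most of its UMIs in each set. The Bglap2 share was then 36.6% in osteoblast-like and 6.78% in high Col10a1 cells of library MGJ, and 45.3% and 4.69% in library MGJ2. In moderate cells of library MGJ2 a cell with 222 Bglap and 78 Bglap2 UMIs had set the value, which was 12.5% without it (4.73 to 25.2%) and overlapped the interval of the high stage (2.17 to 8.71%). In low cells of that library 1 cell held 81 and 65 of them, together with 1712 Col1a1 and 1479 Col2a1 UMIs. Osteoblast-like cells held 2.06 and 1.98 Bglap UMIs per Bglap2 UMI, and high Col10a1 cells 13.2 and 17.8, in libraries MGJ and MGJ2. The part of free RNA in these ratios was not tested, nor whether the copies differ in how many of their reads could be assigned.

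**Figure D2:**
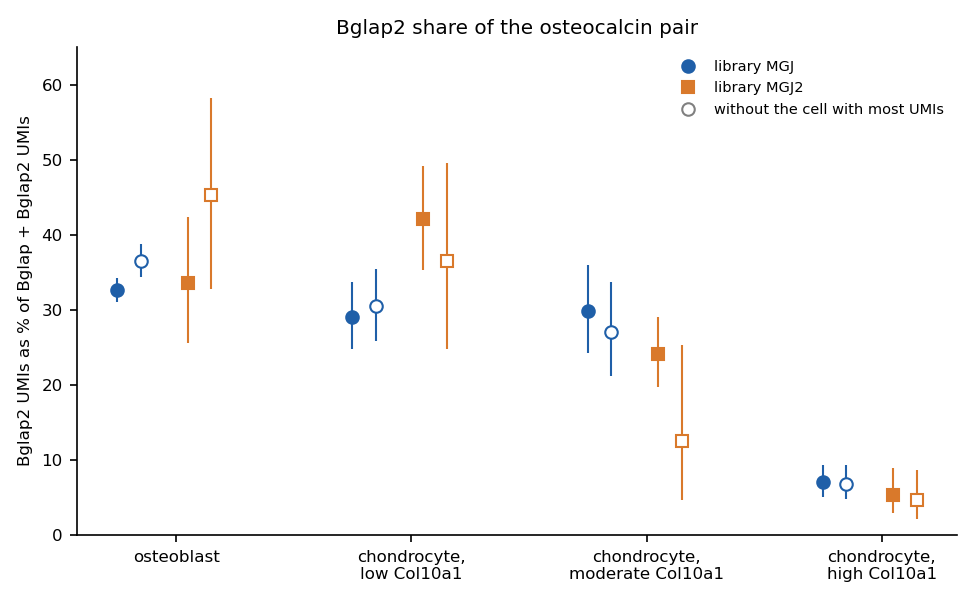
Bglap2 UMIs as a percent of Bglap plus Bglap2 UMIs in osteoblast-like cells and the 3 Col10a1 stages, blue circles for library MGJ and orange squares for library MGJ2, with exact 95% binomial intervals. Open symbols leave out the cell with the most UMIs of the pair; the high Col10a1 cells sit at 7.04% and 5.33% with all cells and at 6.78% and 4.69% without that cell.

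As a level, Bglap was 7.13-fold higher in high than in low Col10a1 cells of library MGJ (6.19 to 8.23), the 1 of 7 measured members called higher against 7.25% of all genes, while Bglap2 was not called (1.32, 0.904 to 1.88). In library MGJ2 none of 6 measured members was called higher, against 6.95% of all genes. Bglap there was 1.87-fold higher (1.49 to 2.35), below the 2-fold limit, and was called higher under 7 of 13 other settings. Bglap2 was called lower at 0.145 (0.0741 to 0.260). The size of that ratio rested in part on 1 low Col10a1 cell. Without the highest cell of each set the Bglap2 ratio was 0.386, still past the 2-fold limit. The 9 and 23 UMIs then left in high and low cells were under the 50 required for a call. Between osteoblast-like and high Col10a1 cells the copies also parted. Bglap and Bglap2 were 45.5-fold and 291-fold higher in osteoblast-like cells of library MGJ, the 2 of 6 members called higher against 9.66% of all genes. In library MGJ2 only Bglap2 of 5 was called, at 16.1-fold (8.50 to 32.5; 7.99% of all genes), and Bglap stood at 1.79-fold (1.38 to 2.30). Without the highest cells the Bglap2 ratio was 12.4, still past the 2-fold limit, yet no member was called higher. Those cells held 21 of the 44 osteoblast-like and 4 of the 13 high Col10a1 Bglap2 UMIs, which left fewer than the 50 required for a call.

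Mgp was abundant in the chondrocyte-like cells, and its level along Col10a1 had a trough. It stood at 12581 CPM (MGJ) and 11347 CPM (MGJ2) in chondrocyte-like cells, and at 1887 and 138 CPM in the remaining cells. Over the 7 Col10a1 bins of library MGJ the level was 16555, 15223, 7795, 5601, 3712, 6753 and 13089, so that the lowest value was in cells with 3000 up to 10000 Col10a1 CPM and the last bin lay well above it. The median over single cells took the same course, 6387 in the first bin, 1215 in that trough and 2995 in the last. In library MGJ2 the level was 19981 in the first bin (40 cells), 10329 from 10000 CPM of Col10a1 (20 cells) and 12549 in the last bin (28 cells). The 4 bins between held only 2, 14, 9 and 19 cells, and stood at 3743, 4008, 5725 and 2496. The median over single cells of library MGJ2 was 9475 in the first bin and 656 from 3000 up to 10000 CPM. It was 821 in the next bin and 3891 in the last, so the level of 10329 was set by a minority of its cells. The high-over-low ratio of Mgp was 0.610 (MGJ) and 0.770 (MGJ2) and was not called.

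**Figure D3:**
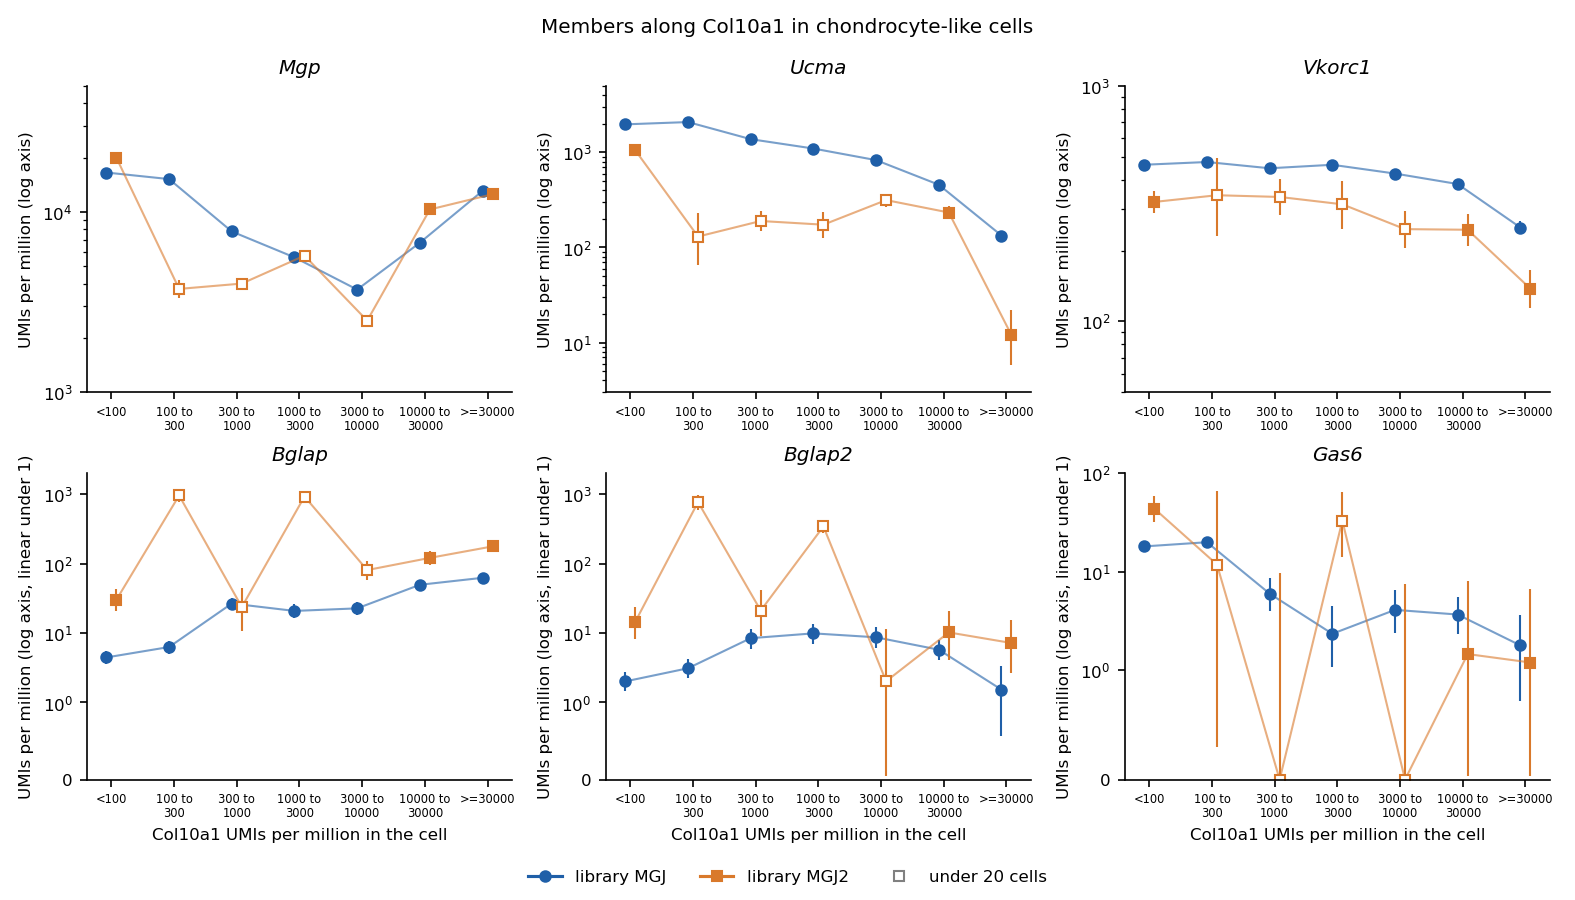
CPM (log axis) of 6 members in chondrocyte-like cells binned by the Col10a1 CPM of the cell, blue circles for library MGJ and orange squares for library MGJ2, with exact 95% Poisson intervals and open symbols for bins of under 20 cells. Mgp dips to 3712 (MGJ) and 2496 (MGJ2) between 3000 and 10000 Col10a1 CPM and is at 13089 and 12549 in the last, while Ucma is lowest in the last bin, at 134 and 12.0.

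The high Col10a1 cells were divided further by Mmp13, the collagenase of terminal hypertrophic chondrocytes, at 1000 CPM, a split chosen after these values had been seen. In library MGJ the 123 cells with more Mmp13 held 27266 Mgp CPM and the other 375 held 4114, a ratio of 6.63 (6.54 to 6.72). The 21 and 27 such cells of library MGJ2 held 18043 and 7007, a ratio of 2.58 (2.50 to 2.66). These intervals leave out the spread between cells, and Mgp was concentrated in few of them. In library MGJ, 50 of the 498 high Col10a1 cells held 60.8% of their Mgp UMIs. In library MGJ2, 5 of the 48 held 62.5%, and 1 cell held 4027 of the 17562. Bglap was also higher on the Mmp13 side, 3.25-fold in library MGJ (2.74 to 3.85) and 2.32-fold in library MGJ2 (1.77 to 3.07), while the Bglap2 ratios of 0.837 (0.335 to 1.84) and 2.29 (0.660 to 8.89) had intervals that held 1. Spp1, which encodes osteopontin, was 4.57-fold and 1.38-fold higher in the same cells. Ibsp, which encodes bone sialoprotein, went in opposite directions, at 0.570 in library MGJ (0.560 to 0.580) and 1.36 in library MGJ2 (1.32 to 1.40). Col10a1 itself was at 1.15 and 0.633 of the other cells' level. Ucma was lower, at 0.286 (MGJ) and 0.0345 (MGJ2). Vkorc1 was at 0.486 and 0.667, and the Ggcx intervals held 1. Within 1.2-fold of the Mmp13 limit lay 20 cells (MGJ) and 4 cells (MGJ2).

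**Figure D4:**
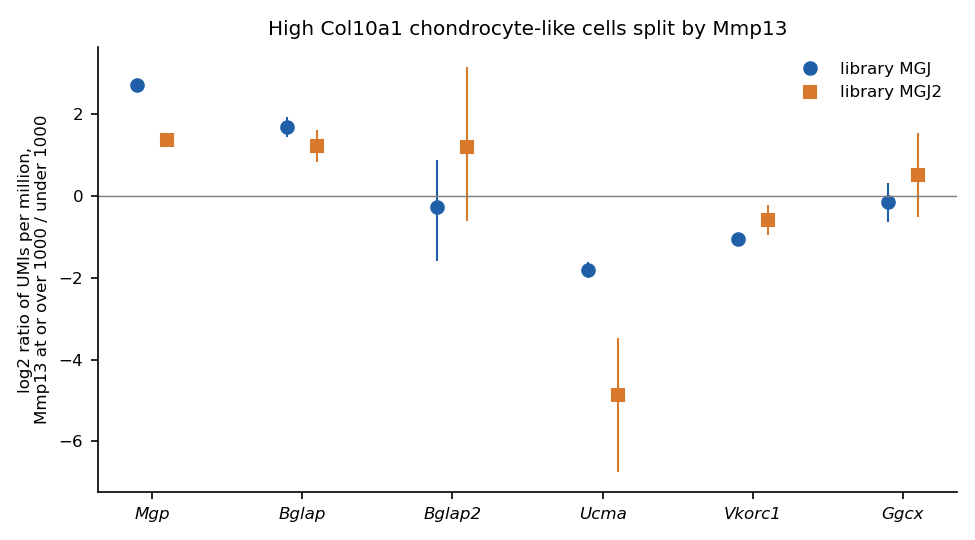
Ratio, on a log2 scale, of CPM in high Col10a1 chondrocyte-like cells with at least 1000 Mmp13 CPM over those with fewer, for 6 members, blue circles for library MGJ and orange squares for library MGJ2, with exact 95% intervals. Mgp and Bglap lie above 0 and Ucma and Vkorc1 below 0 in both libraries, and the intervals of Bglap2 and Ggcx cross 0.

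Among the other named classes, Mgp was highest in pericyte and smooth muscle-like cells of library MGJ, at 4734 CPM, then in fibroblast-like cells at 1872. The unnamed cells of that library, which include those set aside for markers of other classes, held 5052. In osteoblast-like cells it stood at 1053 (MGJ) and 1184 (MGJ2), 0.115 and 0.102 of the high Col10a1 level. With Ucma at 0.313 and 0.0559, Mgp was 1 of 2 members called lower in that comparison in each library, against 12.3% and 13.2% of all genes. A single osteoblast-like cell held 601 of the 1030 Mgp UMIs of library MGJ, another held 355 of the 379 of library MGJ2, and the ratios without the highest cells were 0.0512 and 0.00946. The Ucma ratio of library MGJ was 0.0901 without the highest cells, and 0.542 and not called with both Col10a1 limits doubled, and that of library MGJ2 rests on 2 osteoblast-like UMIs. Mgp was also counted in leukocytes. Neutrophil-like cells held 295.7 Mgp UMIs per 1000 of Col2a1 in library MGJ and monocyte-like, macrophage-like and B cell-like cells 0.935, 0.866 and 1.02 of that ratio. In library MGJ2 the ratio was 485, and the same classes held 0.407, 1.38 and 1.12 of it. Fibroblast-like and endothelial-like cells held 2.67-fold and 3.21-fold more Mgp per Col2a1 UMI than neutrophil-like cells, and endothelial-like cells of library MGJ2 20.8-fold more. After thinning, 93.0% of low Col10a1 cells and 24.3% of neutrophil-like cells of library MGJ had an Mgp UMI (98.8% and 41.8% before thinning, median depths 20393 and 3262).

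Ucma had the largest share of its UMIs in chondrocyte-like cells of the 8 genes, 88.1% (MGJ) and 96.5% (MGJ2), and was lowest in the last Col10a1 bin of each library. The level over the Col10a1 bins of library MGJ was 1975, 2087, 1379, 1099, 830, 458 and 134 CPM. In library MGJ2 it was 1051 in the first bin, then 130, 190, 174 and 315 in the bins of 2, 14, 9 and 19 cells, 233 from 10000 CPM of Col10a1 and 12.0 in the last bin, from 10 UMIs. High cells were at 0.171 of the low level in library MGJ (0.165 to 0.177) and 0.143 in library MGJ2 (0.121 to 0.169), so that Ucma was called lower in both. It was 1 of 2 members so called in each library, with Gas6 in library MGJ (12.7% of all genes) and Bglap2 in library MGJ2 (9.53%). After thinning, 69.5% of low, 50.3% of moderate and 24.3% of high Col10a1 cells of library MGJ had a Ucma UMI, against 2.34% of neutrophil-like cells (85.2%, 77.3%, 55.4% and 4.90% before thinning).

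Mgp and Ucma were not high in every chondrocyte-like cluster. Among the 8 chondrocyte-like sub-clusters of library MGJ, made without these genes, Mgp ran from 2355 to 16018 CPM. The lowest was a cluster of 200 cells led by H2-Ab1, a class II antigen-presentation gene, and Cdsn, where Ucma was 684 CPM, between the 297 of the cluster led by Col10a1 and the 2274 of a cluster led by Nos2. The cluster of 254 cells led by the mitotic genes Ube2c and Birc5 held 9024 Mgp and 1356 Ucma CPM. Col10a1 stood at 3855 CPM over the cluster led by H2-Ab1 and Cdsn, within the range of the Mgp trough. It was 2818 in the cluster with the highest Mgp. How far the make-up of clusters set the trough of Mgp along Col10a1 was not tested.

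Gas6 is the secreted Gla ligand of the receptor kinases Axl, Mertk and Tyro3. In library MGJ Gas6 was higher in fibroblast-like than in any other class of at least 50 cells, and low in chondrocyte-like cells. In library MGJ it stood at 191 CPM in fibroblast-like cells, which held 66.5% of its UMIs, 41.3 in macrophage-like, 32.9 in endothelial-like and 12.8 in chondrocyte-like cells. Macrophage-like and endothelial-like cells could not be told apart (ratio 1.25, 0.994 to 1.60). Within fibroblast-like cells it was 309 in the sub-cluster led by Ereg and Saa3, 224 in that led by Kera and Tnmd, and 78.0 in that led by Igfbp5 and Aspn. The first of these, of 500 cells, was named from its whole marker score, and its leading genes held none of the fibroblast list and 1 of the marrow reticular list, Cxcl12. Without it the fibroblast-like cells of library MGJ stood at 86.8 CPM (81.1 to 92.9) and held 16.1% of the Gas6 UMIs. The 4 marrow reticular-like cells of that library held 298 CPM, from 34 UMIs. The 19 marrow reticular-like cells of library MGJ2 held 50.4% of its Gas6 UMIs at 1144 CPM, and endothelial-like cells stood at 148 from 64 UMIs. Chondrocyte-like cells of that library were at 14.9, from 56 UMIs. Their ratio to all other cells was 1.92 (1.42 to 2.54), above 1 but under the 2-fold limit, against 0.209 in library MGJ. In chondrocyte-like cells Gas6 was 17.4 in low and 2.95 in high Col10a1 cells of library MGJ, a ratio of 0.170 (0.114 to 0.245). The counts in library MGJ2 were 46 and 2 UMIs, a ratio of 0.0426 (0.00501 to 0.163), below the 50 UMIs required for a call.

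The receptors of Gas6 were spread over several classes. In library MGJ, Axl was highest in pericyte and smooth muscle-like cells at 129 CPM, followed by fibroblast-like cells at 73.8. Mertk was highest in macrophage-like cells at 31.0, against 5.93 in chondrocyte-like cells. Tyro3 was scarce, with 220 UMIs in the library. In library MGJ2, Axl was 229 in the 21 macrophage-like cells, 79.3 in osteoclast-like and 27.1 in monocyte-like cells. Mertk there was 11.2 in chondrocyte-like cells, from 42 UMIs. It was called higher in them than in all other cells, at 11.3-fold (7.36 to 17.2), against 0.889 and no call in library MGJ. Osteoblast-like cells of library MGJ2 held Mertk at 31.2, from 10 UMIs, and endothelial-like cells at 20.8, from 9. Axl was called lower in chondrocyte-like cells than in all other cells in both libraries, at 0.303 and 0.237.

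The carboxylation enzymes were highest in chondrocyte-like, osteoblast-like and fibroblast-like cells of library MGJ. Ggcx stood at 30.2, 31.7 and 23.96 CPM in these classes, and the first pair could not be told apart (ratio 1.05, 0.711 to 1.497). In library MGJ2 it was 31.0 in chondrocyte-like and 34.4 in osteoblast-like cells, the second from 11 UMIs, with no UMI in the 8 fibroblast-like cells. Vkorc1 stood at 439 in chondrocyte-like, 306 in osteoblast-like, 280 in fibroblast-like, 57.4 in endothelial-like and 5.37 in neutrophil-like cells of library MGJ. It was 258, 247, 221, 57.7 and 0.906 in the same classes of library MGJ2. Both enzymes were called higher in chondrocyte-like than in all other cells. The ratios were 2.55 (MGJ) and 15.2 (MGJ2) for Ggcx, and 3.18 and 13.5 for Vkorc1.

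With Mgp (6.67-fold and 82.2-fold) and Ucma (9.56-fold and 396-fold), 4 of 7 measured members were called higher in chondrocyte-like cells of library MGJ, against 13.1% of all genes. In library MGJ2, 6 of 7 were, against 19.7%. The set-aside clusters count among all other cells, and the size of these ratios moved widely over 11 other settings. Mgp in library MGJ ran from 4.02-fold with each library clustered alone to 15.1-fold with the set-aside clusters kept in their class, and Ucma from 5.79-fold to 41.5-fold under the same settings. In library MGJ2 Mgp ran from 58.0-fold with called doublets kept to 211-fold with each library clustered alone, and Ucma from 133-fold to 1407-fold. The enzymes in library MGJ ran from 2.31-fold (Ggcx) and 2.78-fold (Vkorc1) to 4.91-fold and 6.80-fold. In library MGJ 3 were called lower, against 23.1% (Gas6 at 0.209, Bglap2 at 0.248 and Bglap at 0.4999, the last at the 2-fold limit), and none in library MGJ2, against 30.6%. The lower call of Bglap in library MGJ rested on the osteoblast-like cell with 1194 UMIs: its ratio was 0.854 without the highest cells and 1.39 when each cell had equal weight. That weighting also ended the lower call of Bglap2, at 0.661. Along Col10a1, Vkorc1 was at 0.713 of the low level in high cells of library MGJ (0.688 to 0.740) and 0.569 in library MGJ2 (0.490 to 0.660), and Ggcx at 0.759 and 0.588. None of these 4 ratios passed the 2-fold limit. In the last Col10a1 bin Vkorc1 was 251 and 138 CPM, against 463 and 322 in the first.

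Of 20 further genes of the pathway, 17 (MGJ) and 15 (MGJ2) reached 50 UMIs when chondrocyte-like cells were compared with all others. In library MGJ 1 was called higher, against 13.1% of all genes, and 6 lower, against 23.1%. In library MGJ2 5 were called higher, against 19.7%, and 4 lower, against 30.6%. Those called alike in both libraries were Nqo1, a quinone reductase that can reduce vitamin K (2.80-fold and 3.78-fold higher), and, on the lower side, Axl and the Gla-domain coagulation genes F7, F10 and Proz. Monocyte-like cells held F10 at 707 CPM (MGJ) and 834 CPM (MGJ2), and chondrocyte-like cells at 2.75 and 2.67 CPM. For osteoblast-like cells only F10 was called alike in both libraries (0.157 in library MGJ, and 0 of 17225 UMIs in library MGJ2). For high against low Col10a1 cells, 13 further genes of library MGJ met the 50-UMI limit, but only 4 of library MGJ2. None of these 4 was called in either library. The 1 gene called higher and the 3 called lower in library MGJ had too few UMIs in library MGJ2 for a call. Whether their changes were shared could therefore not be tested. Vkorc1l1, the paralogue of Vkorc1, was more even, at 41.7 in chondrocyte-like, 40.2 in endothelial-like and 8.55 in neutrophil-like cells of library MGJ. Proc was at 0 in every class of both libraries.

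The genes whose level over the classes and stages was most like that of a member were found by Pearson correlation of log2(CPM + 10), over 18 classes of library MGJ and, beside it, 12 of library MGJ2. Points share their library and depth, and r is a description only. For Mgp they were Il17d (r = 0.981 and 0.902), Snai2 (0.964 and 0.970) and F3 (0.959 and 0.911). For Ucma they were Cnmd, which encodes chondromodulin (0.985 and 0.989), Unc5c (0.974 and 0.999) and Il11 (0.963 and 0.962). Bglap was closest to 4631405J19Rik (0.994 and 0.998), Dmp1 (0.983 and 0.997) and Cdo1 (0.963 and 0.768), and Bglap2 to Ptprz1 (0.989 and 0.977) and Ifitm5 (0.989 and -0.286). Classes and stages of under 50 cells did not enter, which in library MGJ2 left out the osteoblast-like cells and the moderate and high stages. The low stage was then the only chondrocyte-like point of library MGJ2, and a high r there can rest on that point alone. Cnmd, Dmp1 and Ifitm5 were also in the marker lists that named the classes, so their likeness to a member was partly built in.

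The promoters of 6 of the 8 members were at hand in RefSeq (GRCm38.p6), and the windows of Bglap and Ucma are shown as those of a gene of the osteoblast-like and of the chondrocyte-like cells. The letters AACCACA, a motif of Runx factors, were searched on both strands in the 250 bases before each start, with a match in capitals. Only these exact letters were searched, so a window without a match may hold another form of the motif. Bglap lies on the minus strand (window chr3:88384467-88384716) and Ucma on the plus strand (window chr2:4975872-4976121).
Bglap: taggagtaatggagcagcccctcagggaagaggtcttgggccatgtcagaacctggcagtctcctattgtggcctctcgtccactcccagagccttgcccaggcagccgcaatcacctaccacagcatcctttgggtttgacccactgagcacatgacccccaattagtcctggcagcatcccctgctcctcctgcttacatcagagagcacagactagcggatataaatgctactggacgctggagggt
Ucma: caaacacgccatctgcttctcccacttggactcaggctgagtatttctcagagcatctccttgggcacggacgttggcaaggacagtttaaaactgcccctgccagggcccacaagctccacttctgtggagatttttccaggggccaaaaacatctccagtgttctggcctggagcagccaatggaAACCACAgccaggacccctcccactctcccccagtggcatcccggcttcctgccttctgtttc
Of the 6 members, only Ucma had a match, which began 63 bases before the start. Of all 32851 promoter windows, 4.40% held one, and 5.08% of 27025 genes had such a window.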

How the data were processed

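Callus cells of 2 libraries (MGJ, MGJ2) were analysed from the filtered matrices the authors deposited, which hold raw UMI counts per gene and barcode made with Cell Ranger 4.0.0, with GRCm38 named in the submitters' processing notes. Barcodes needed at least 200 genes and at most 20% mt- UMIs, and Scrublet doublet calls were removed. Both libraries were clustered together (scanpy 1.11.5, 2000 variable genes without the 28 listed genes, 30 components, 15 neighbours, Leiden resolution 1), and stromal clusters were clustered again at the same resolution. Of 42 clusters 35 were named from 23 marker lists, and 3 stromal clusters whose leading genes marked leukocytes were set aside. UMIs were summed per class and divided by the class total; ratios have exact conditional binomial intervals. Code for the ratios was tested on simulated data. Genes named were the 8 members, listed pathway genes called alike in both libraries, and for Mgp, Ucma, Bglap and Bglap2 the 3 genes with the highest r in library MGJ, of which 1 is not reported here. The Gas6 receptors, Vkorc1l1, Proc, Spp1, Ibsp and the leading genes of clusters were named after their values were seen. Members, lists and tests were chosen with earlier results of these data known. Processing was varied in 13 ways, and in 2 more chosen after seeing the data, as were the Mmp13 split and the alternatives for the Bglap2 share.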

Additional observations from a re-analysis of the deposited data

Results flagged for a closer look

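The barcodes removed by the filters, which enter no comparison, also held UMIs of the Gla genes. In library MGJ the 975 removed barcodes held the 8 genes together at 3701.46 CPM, against 7672 in the barcodes kept. In library MGJ2 the 425 removed barcodes held 266.977, against 954 in those kept. Mgp made up most of both values, at 3070 and 242.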

How the results depend on the processing

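The counts of members called were recomputed under other settings, and 18 counts moved by more than 1.5 times while 170 did not. With each cell weighted equally, 1 member was lower in chondrocyte-like cells of library MGJ, 4 were higher in osteoblast-like cells of library MGJ, and 0 were lower in those of library MGJ2; the Bglap ratio of chondrocyte-like cells of library MGJ reversed to 1.39. The other moves but 1 were in library MGJ2. Members lower in its osteoblast-like cells numbered 2 at resolution 0.5, at resolution 2 and without the cell with the most UMIs, and 0 with at least 500 genes. In its high against low Col10a1 cells, 1 member, Bglap, was higher at resolution 0.5, with at most 10% mt- UMIs, with equal cell weights, with each library clustered alone, with the set-aside clusters kept, with both Col10a1 limits doubled and without the highest cell, where 1 was lower. For its osteoblast-like over high Col10a1 cells, 2 were higher at resolution 0.5 and 0 without the highest cell. With both Col10a1 limits doubled, 1 was lower in osteoblast-like than in high Col10a1 cells of library MGJ. Of the values for single genes, 392 stayed within their intervals and 223 moved; Gas6 in fibroblast-like cells of library MGJ was 86.8 CPM without the cluster led by Ereg and Saa3. The Bglap2 share of the pair in high Col10a1 cells ranged from 3.80 to 8.03% (MGJ) and from 4.69 to 6.30% (MGJ2), alternatives added after the data were seen. Clustered alone, library MGJ2 gave no osteoblast-like cells and hence no value. No paired analysis was possible because the labels give neither library a group. The cause of these moves was not tested. The number of cells limits the small classes, as in the 13 osteoblast-like cells of library MGJ2, whose median depth of 26755 UMIs was above the 14656 of library MGJ.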
